A study of Canis lupus familiaris with 2 samples.

Results

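Kinesins are motor proteins that walk along microtubules or take them apart, and tubulins are the subunits from which microtubules are built. Their genes were collected by symbol, as every feature whose symbol begins with KIF and a digit or with TUBA, TUBB, TUBD, TUBE or TUBG. This gave 60 of the 23510 features, of which 38 are kinesins and 22 are tubulins or proteins of the gamma-tubulin complex. RNA came from MDCK cells, an established dog kidney line with the shape of a columnar epithelium, kept in EMEM with 10% FCS on a semipermeable membrane. One culture stood under 2-cm-high medium (labelled 2 cmH2O, no pressure) and the other under 50-cm-high medium (labelled 50 cmH2O), and the labels place both at day 3. The labels name no drug or transgene for either. The comparison asks how gene expression differs when static water pressure is loaded on the cells. Each height had 1 culture. No value below therefore has a replicate error, no difference was tested, and "higher" and "lower" state only how the 2 deposited values compare.

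Microtubules are hollow polymers of alpha- and beta-tubulin dimers. Gamma-tubulin, held in a ring with the gamma-tubulin complex proteins, starts new ones, and delta- and epsilon-tubulin serve the centriole. Vertebrates carry several alpha and beta genes, called isotypes, whose proteins differ mainly at the carboxy-terminal tail. Cells also adjust tubulin mRNA to the amount of free tubulin dimer, a feedback known as autoregulation. In a polarised kidney epithelium, microtubules run along the apicobasal axis and carry vesicles, and at division they are rebuilt into a spindle. Mitotic kinesins act on that spindle and are made mainly around G2 and M phase. Transport kinesins carry cargo mainly outside mitosis, in proliferating and resting cells alike.

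Values are FPKM, a count of sequenced fragments corrected for exon length and library size, so levels of different genes can be set side by side within a culture. A gene was compared when its FPKM was above 1 in both cultures. This held for 46 members (76.7%) and for 11057 of all features (47.0%). Over these 11057 features the median FPKM was 16.2 at 2 cm and 16.3 at 50 cm. The ratio of the values, 50-cm divided by 2-cm throughout, had a median of 1.01. Its 5th and 95th percentiles were 0.666 and 1.36. Read numbers of the libraries are unknown, and a single read added 9.77% more FPKM at 50 cm than at 2 cm. Of 7 epithelial marker genes all were above 1 FPKM in both cultures, as were both kidney tubule markers listed, PAX2 and PAX8. No fibroblast, endothelial or leukocyte marker among 11 exceeded 0.277 FPKM in either culture. In such bulk RNA, fewer cells in a given state and less RNA per cell cannot be told apart.

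Over the 46 members above 1 FPKM, 27 were higher at 50 cm (58.7%, against 52.6% of all features), and 11 passed 1.25-fold in either direction (23.9%, the same share as among all features). The limit of 1.25-fold was added after the values had been seen. The role groups differed from one another. The alpha- and beta-tubulin genes were higher in 50-cm-high medium, and the kinesin genes were close to level. Of the 8 alpha- and beta-tubulin genes above 1 FPKM, 7 were higher at 50 cm, with a median ratio of 1.37, against a median of 1.01 among all features. Of the 29 kinesin genes above 1 FPKM, 13 were higher and 16 lower, with a median ratio of 0.997. Past the 2-fold limit used in the study lay 1 member, the beta-tubulin gene TUBB2A. This limit was passed upward by 43 (0.389%) and downward by 142 (1.28%) of all features. These are far fewer than the study reports for the same fold and FPKM minimum, and the source of the difference is not known. At a lower limit of 1.5-fold, TUBB2A remained the single higher member and KIF5C was the single lower one, against 2.13% of all features upward and 5.06% downward. The limit of 1.25-fold was passed upward by 6 of the 8 alpha- and beta-tubulin genes, compared with 10.5% of all features. Of the 29 kinesin genes, 27 stayed within 1.25-fold, and 2 (6.90%) passed it in either direction, against 23.9% of all features.

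**Figure D1:**
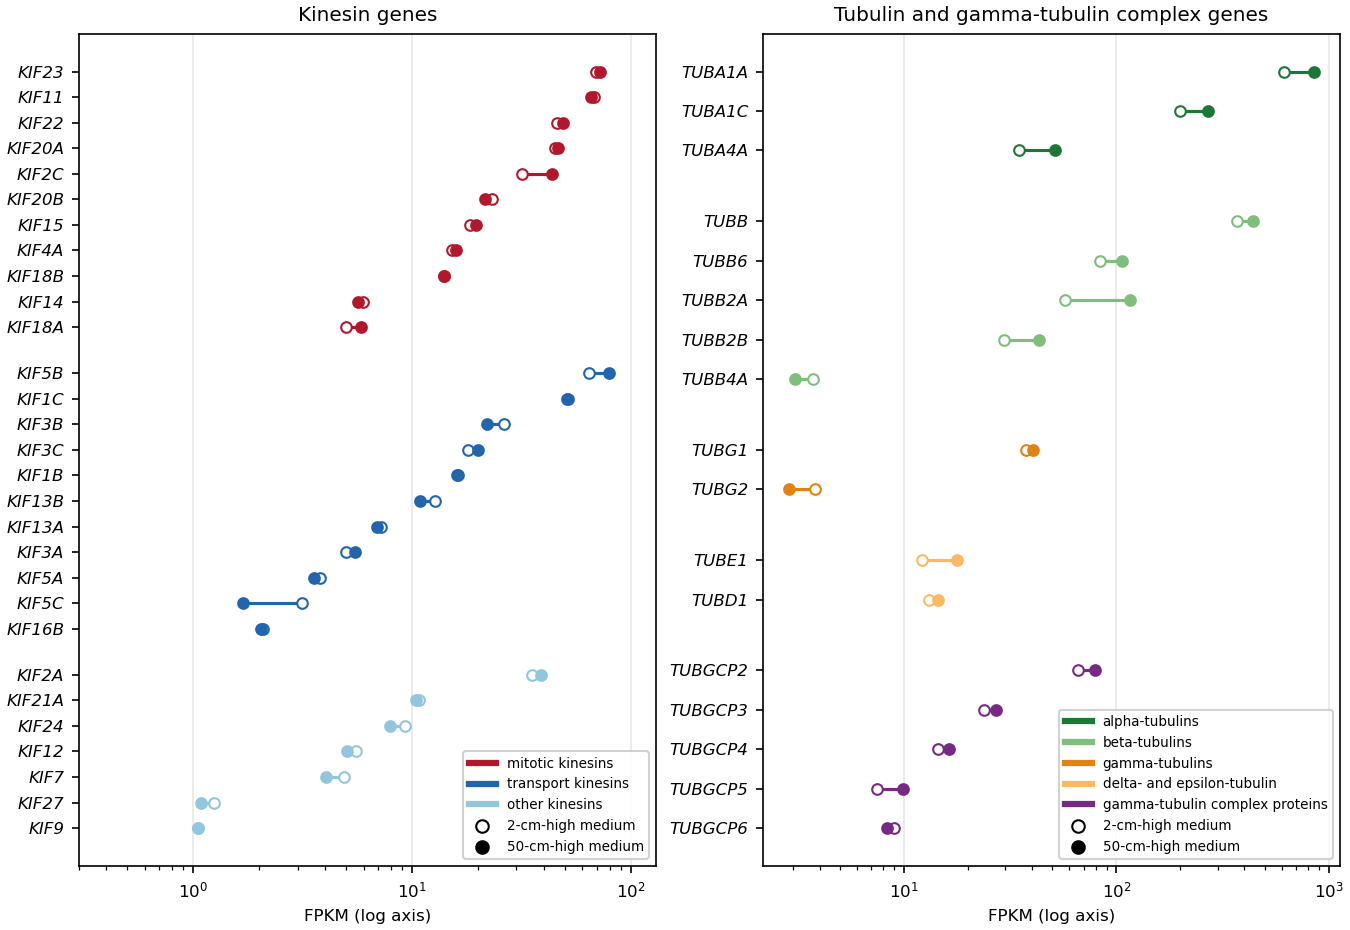
FPKM (log axis) of the 46 members above 1 FPKM in both cultures, 1 line per gene, with the 2-cm culture as an open circle and the 50-cm culture as a filled one; there are no error bars because each height had 1 culture. The filled circles of TUBA1A, TUBA1C, TUBA4A, TUBB, TUBB6, TUBB2A and TUBB2B lie to the right of the open ones, whereas those of most kinesins nearly coincide.

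The alpha-tubulin genes that could be compared numbered 3, and all were higher in the 50-cm culture. TUBA1A, the most abundant of all members, had 613 FPKM at 2 cm and 847 FPKM at 50 cm, a ratio of 1.38. TUBA1C, a closely related isotype, went from 200.2 to 271 FPKM (ratio 1.36), and TUBA4A from 34.7 to 51.4 FPKM (ratio 1.48). The ratios lay within a narrow range although the levels were far apart, and 95% to 97.7% of all features had a lower ratio. Among the 500 features nearest to each in level, 96.2% to 97.2% had a lower ratio. TUBA8 was below the minimum, with 0.917 and 0.592 FPKM, and TUBAL3 was listed at 0 in both cultures.

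Beta-tubulin was less uniform. TUBB, the listed beta isotype with the highest FPKM in both cultures, had 371 FPKM at 2 cm and 440 FPKM at 50 cm. Its ratio of 1.19 was the smallest among the higher isotypes. TUBB6 had 83.8 and 106 FPKM (ratio 1.27), and TUBB2B 29.6 and 43.0 FPKM (ratio 1.45). TUBB2A stood furthest out, with 57.2 FPKM at 2 cm and 116 FPKM at 50 cm. Its ratio of 2.02, or 1.02 on the log2 scale, was above that of 99.6% of all features and of 99.8% of the 500 nearest in level. It passed 2-fold narrowly. Quantile normalization of the cultures gave a log2 ratio of 0.95 and division by the summed FPKM gave 0.98, both short of 2-fold. Neither altered the direction of any alpha- or beta-tubulin gene above 1 FPKM. Division by the summed FPKM could not have done so, because it shifts all genes by the same small amount. Among the beta isotypes above 1 FPKM, only TUBB4A was lower, with 3.72 and 3.06 FPKM, and this ratio of 0.823 is also the one that 3 reads at 50 cm against 4 at 2 cm, or multiples of these, would give. TUBA1A and TUBA1C, as well as TUBB2A and TUBB2B, are closely similar in coding sequence. How the 75-base reads were divided within each pair is not stated, so their separate values are less certain than their sums. That TUBB2A passed 2-fold rests on this division of reads.

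Summed over all 5 listed isotypes, alpha-tubulin had 848 FPKM at 2 cm and 1171 FPKM at 50 cm, a ratio of 1.38. No feature carried the symbol TUBA1B, a further alpha isotype close in sequence to TUBA1A and TUBA1C. Whether its reads were lost or counted under another symbol is not known. Alpha sums, shares and alpha-to-beta ratios therefore cover the listed symbols only. The 8 listed beta isotypes summed to 546 and 709 FPKM, a ratio of 1.30. TUBB4B entered this sum with 0.587 and 0.773 FPKM, and whether all its reads were counted under its symbol is not known. Beta sums and shares therefore cover the values as listed. Without TUBB2A, the beta sum had a ratio of 1.21. Together, alpha- and beta-tubulin took 0.232% of all FPKM at 2 cm and 0.306% at 50 cm, and alpha exceeded beta by 1.55 to 1 and 1.65 to 1, respectively. The mix of alpha isotypes was nearly the same in both cultures, with TUBA1A at 72.2% and 72.4% of alpha-tubulin FPKM and TUBA1C at 23.6% and 23.2%. Within beta-tubulin, the share of TUBB was 67.9% at 2 cm and 62.0% at 50 cm, while that of TUBB2A was 10.5% and 16.3%. TUBB6 kept a share of 15.3% and 15.0%. In the 50-cm culture TUBB2A thus ranked second among beta isotypes by FPKM, a place that TUBB6 held in the 2-cm culture. This order also rests on how reads were divided between TUBB2A and TUBB2B.

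**Figure D2:**
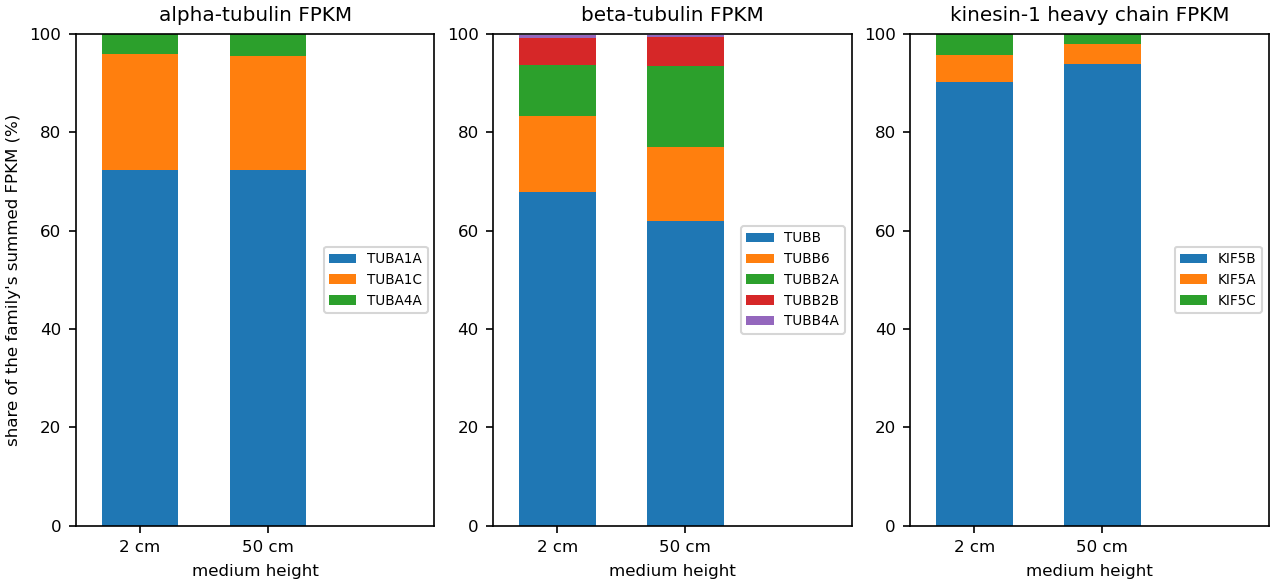
Share (%) of the summed FPKM of each family taken by its genes in 2-cm-high and 50-cm-high medium, with 1 bar per culture and genes under 0.2% left out of the bars. The alpha-tubulin bars are alike, TUBB2A widens from 10.5% to 16.3% of beta-tubulin, and KIF5B from 90.3% to 93.8% of kinesin-1 heavy chain.

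The remaining tubulins showed smaller ratios, with TUBE1 as the exception. TUBE1, which encodes epsilon-tubulin, had 12.2 FPKM at 2 cm and 17.7 FPKM at 50 cm, a ratio of 1.45 that exceeded that of 97.2% of all features. Its centriolar companion TUBD1 had 13.1 and 14.5 FPKM (ratio 1.10). TUBG1, the main gamma-tubulin gene, had 37.5 and 40.5 FPKM (ratio 1.08). TUBG2 was far less abundant and lower, with 3.80 and 2.87 FPKM (ratio 0.756), where 25.8% of the 500 features nearest in level had a still lower ratio. TUBG1 therefore made up 90.8% of gamma-tubulin FPKM at 2 cm and 93.4% at 50 cm. Of the 5 gamma-tubulin complex genes, which encode the ring that holds gamma-tubulin, 4 were higher at 50 cm, with a median ratio of 1.15. TUBGCP2 had 65.8 and 79.4 FPKM (ratio 1.21), TUBGCP3 23.7 and 27.1 FPKM (ratio 1.15) and TUBGCP4 14.5 and 16.3 FPKM (ratio 1.13). TUBGCP5 had the largest ratio of the ring genes, 1.33, from 7.46 to 9.90 FPKM, and TUBGCP6 was lower with 8.98 and 8.36 FPKM (ratio 0.930).

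**Figure D3:**
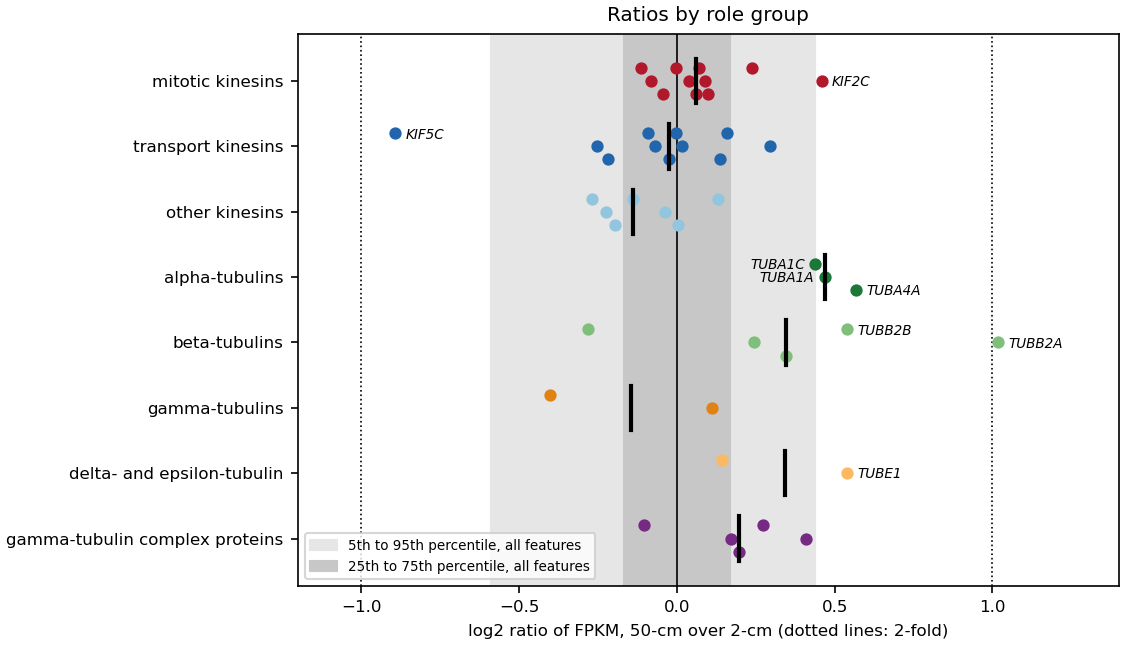
Ratio (log2) of the 50-cm to the 2-cm FPKM of each member above 1 FPKM in both cultures, by role group, with a black bar at the group median and shaded bands for the percentiles of all 11057 features. The 3 alpha-tubulin genes and TUBB2A, TUBB2B, TUBE1 and KIF2C lie at or above the 95th percentile, KIF5C lies below the 5th, and the medians of the mitotic and transport kinesins are close to 0.

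Mitotic kinesins were expressed in both cultures at similar levels. Of the 11 genes above 1 FPKM, 7 were higher and 4 lower in 50-cm-high medium, with a median ratio of 1.04. Within 1.25-fold lay 10 of them, and 1 passed it (9.09%, against 23.9% of all features). KIF23, a subunit of the centralspindlin complex that acts in cytokinesis, had 69.0 FPKM at 2 cm and 71.9 FPKM at 50 cm (ratio 1.04). KIF11, the motor that pushes the spindle poles apart, had 68.0 and 66.0 FPKM (ratio 0.970). KIF22, a chromosome-arm motor, had 45.8 and 49.1 FPKM (ratio 1.07), and KIF20A, a motor of the central spindle, 45.2 and 46.4 FPKM (ratio 1.03). These 4 genes were the most abundant mitotic motors in both cultures, and all had ratios between 0.970 and 1.07. KIF2C stood apart from them. This kinesin takes microtubules apart at the centromere, and it had 31.7 FPKM at 2 cm and 43.6 FPKM at 50 cm. Its ratio of 1.37 was above that of 95.5% of all features and of 94.8% of the 500 nearest in level. KIF18A, which shortens microtubules at the kinetochore, came next with 4.97 and 5.87 FPKM (ratio 1.18).

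The lowest mitotic ratios were those of KIF20B, with 23.3 and 21.5 FPKM (ratio 0.923), and KIF14, with 5.99 and 5.65 FPKM (ratio 0.944). Both act in cytokinesis. KIF15, KIF4A and KIF18B filled the middle with 14.0 to 19.6 FPKM and ratios of 0.999 to 1.06. The ratios of KIF18B, KIF20A and KIF23 were so close to 1 that their direction depended on how the cultures were scaled. The summed FPKM of the mitotic kinesins was 342 at 2 cm and 360 at 50 cm, a ratio of 1.05, and of 1.02 without KIF2C. For comparison, of 15 listed mitosis genes that are not kinesins, 7 were higher and 8 lower at 50 cm, with a median ratio of 0.986. None of the 15 genes passed 1.25-fold, against 23.9% of all features. They ran from CENPF, a kinetochore gene with 41.5 and 33.6 FPKM (ratio 0.811), to PLK1, a mitotic kinase gene with 43.4 and 53.9 FPKM (ratio 1.24). MKI67, which marks cycling cells, was next to lowest with 70.5 and 59.9 FPKM (ratio 0.850). CDK1, also a mitotic kinase gene, was next to highest with 133 and 158 FPKM (ratio 1.19). Cell numbers of the sequenced cultures were not used here, and their part in these levels was not tested.

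Transport kinesins were spread on both sides of 1. Of the 11 genes above 1 FPKM, 4 were higher and 7 lower, with a median ratio of 0.983, or -0.02 on the log2 scale. The direction of this median was not fixed. Quantile normalization, with 6 genes higher, gave a median log2 ratio of 0.0074, and a minimum of 5 FPKM gave 0.0057, whereas division by the summed FPKM left 3 genes higher. KIF5B, the widely expressed heavy chain of kinesin-1, was the most abundant, with 64.5 FPKM at 2 cm and 79.2 FPKM at 50 cm (ratio 1.23). KIF5C, the heavy chain known best from neurons, went the other way, with 3.15 and 1.70 FPKM. Its ratio of 0.539 was the lowest of all members, and 1.83% of all features had a lower one. At that low level the spread of ratios was wide, and 7.2% of the 500 features nearest in level lay lower. KIF5A, a further neuronal heavy chain, had 3.80 and 3.57 FPKM (ratio 0.938). KIF5B accordingly took 90.3% of kinesin-1 heavy chain FPKM at 2 cm and 93.8% at 50 cm, and KIF5C 4.41% and 2.01%. The summed heavy chain FPKM had a ratio of 1.18.

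The kinesin-2 motors, which drive transport into the primary cilium, did not share a direction. KIF3B had 26.3 and 22.0 FPKM (ratio 0.838), whereas KIF3A, its partner, had 5.01 and 5.51 FPKM (ratio 1.10), and KIF3C, which pairs with KIF3A in its place, had 18.0 and 20.0 FPKM (ratio 1.12). KIFAP3, the accessory subunit of the same motor and not itself a member, had 16.1 and 13.8 FPKM (ratio 0.856). Among the kinesin-3 motors of vesicle traffic, KIF1C, the most abundant, was level with 51.4 and 51.2 FPKM (ratio 0.997), and KIF1B had 16.1 and 16.2 FPKM (ratio 1.01). KIF13B was lower with 12.7 and 10.9 FPKM (ratio 0.859), KIF13A had 7.25 and 6.91 FPKM (ratio 0.953), and KIF16B, an endosome motor, 2.07 and 2.04 FPKM (ratio 0.983). The direction of KIF1B, KIF16B and KIF5A was not the same under every scaling.

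The remaining kinesins with values above the minimum numbered 7. Of them, 5 were lower at 50 cm, with a median ratio of 0.908. None of the 7 passed 1.25-fold, against 23.9% of all features. KIF2A, a relative of KIF2C that also depolymerises microtubules, was the most abundant with 35.4 and 38.7 FPKM (ratio 1.09). KIF7, a ciliary regulator of Hedgehog signalling, had the lowest ratio, 0.829, with 4.89 and 4.05 FPKM. KIF24, which acts at the centriole, had 9.26 and 7.93 FPKM (ratio 0.856), and KIF12, a gene expressed in kidney, 5.57 and 5.06 FPKM (ratio 0.908). KIF21A had 10.7 and 10.4 FPKM (ratio 0.974). KIF27 (1.24 and 1.08 FPKM) and KIF9 (1.05 and 1.06 FPKM) were just above the minimum, and their direction depended on the scaling. Quantile normalization brought the group median to a log2 ratio of -0.01, from -0.14.

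**Figure D4:**
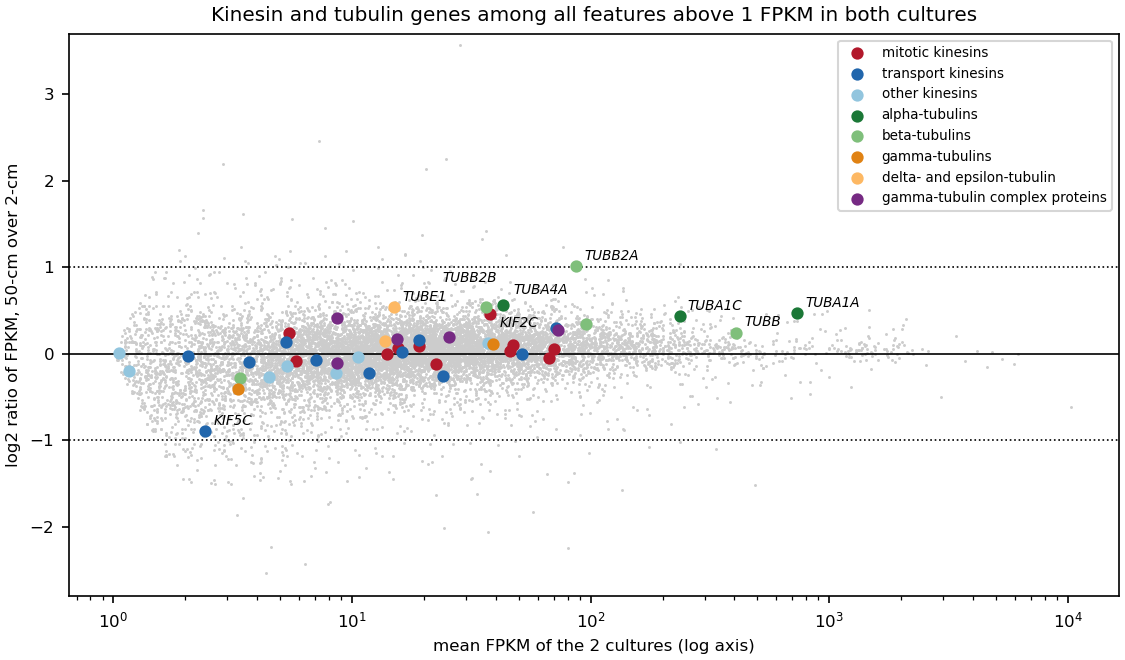
Mean FPKM of the 2 cultures (log axis) against the ratio (log2) of the 50-cm to the 2-cm FPKM for all 11057 features (grey) and the 46 members (coloured by role), with dotted lines at 2-fold. TUBA1A, TUBA1C and TUBB2A lie along the upper edge of the abundant features, where the grey points are narrowly spread, and KIF5C lies among low features whose ratios spread widely.

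The other 14 members did not reach the minimum in both cultures. KIF2B, KIF6, KIF19, KIF25 and TUBAL3 were listed at 0 in both, which without read counts does not show that their RNA was absent. The other 9 lay between 0.00903 and 0.917 FPKM. Among them were a neuronal motor and a neuronal isotype, KIF1A with 0.0399 and 0.0614 FPKM and TUBB3 with 0.174 and 0.286 FPKM. TUBB4B had 0.587 and 0.773 FPKM, TUBB1, a platelet isotype, 0.0881 and 0.0725 FPKM, and KIF17 0.107 and 0.141 FPKM. KIF26A had 0.00903 and 0.0297 FPKM, KIF26B 0.0399 and 0.0766 FPKM, and KIF21B 0.906 and 0.633 FPKM. Of these 9, 7 had a ratio within 0.05% of one that at most 10 reads in each culture would give, such as 3 reads at 50 cm against 1 at 2 cm for KIF26A. Only KIF21B (ratio 0.698) and TUBA8 (ratio 0.646) did not, so no ratio is given for the others.

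Genes that act with the members were listed by function rather than by their values. Of 21 cytoplasmic dynein and dynactin genes above 1 FPKM, 13 were higher and 8 lower, with a median ratio of 1.01. The 21 genes, which form the motor that walks opposite to most kinesins, included 2 past 1.25-fold upward (9.52%, against 10.5% of all features). They ran from DYNLT3, a dynein light chain, with 26.6 and 23.1 FPKM (ratio 0.869), to DCTN6, a dynactin subunit, with 21.2 and 27.3 FPKM (ratio 1.29). Of 27 microtubule-associated proteins, 19 were higher, with a median ratio of 1.07, and 4 passed 1.25-fold upward (14.8%, against 10.5% of all features). MAPRE2, an end-binding protein, led them with 2.84 and 5.30 FPKM (ratio 1.86), and MAP2 followed with 9.90 and 15.7 FPKM (ratio 1.58). At the low end were MAPT, which encodes tau, with 19.4 and 15.7 FPKM (ratio 0.813), and MAPRE3, of the same end-binding family as MAPRE2, with 3.95 and 3.27 FPKM (ratio 0.827). The 18 listed genes of tubulin folding, autoregulation and modification had a median ratio of 0.994, with 9 higher and 9 lower. For folding, this list holds tubulin cofactors and ARL2 but not the CCT chaperonin, which also folds tubulin. CCT2, CCT3, CCT4, CCT5, CCT6A, CCT7 and CCT8, looked up after the values were seen, had log2 ratios of 0.24 to 0.43. These lie between the 75th (0.17) and 95th (0.44) percentiles of all features. Not every subunit gene of the chaperonin was looked up, and a link to the tubulin values was not tested. TTC5, which reads nascent tubulin chains in autoregulation, was level at 12.8 and 12.9 FPKM (ratio 1.01). The highest ratio of the 18 listed genes was that of TTLL12, with 152 and 173 FPKM (ratio 1.13). Among the 18, 4 passed 1.25-fold downward (22.2%, against 13.3% of all features). These were ATAT1, the acetyltransferase of alpha-tubulin, with 11.9 and 6.16 FPKM (ratio 0.519), the deacetylases HDAC6 (12.3 and 8.71 FPKM, ratio 0.709) and SIRT2 (35.0 and 24.9 FPKM, ratio 0.712), and AGBL5, which trims tubulin tails, with 12.8 and 8.57 FPKM (ratio 0.671).

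Relatives and partners of the kinesins that the symbol rule leaves out numbered 9 in the list, with 4 higher and 5 lower and a median ratio of 0.969. Of these 9 genes, 4 passed 1.25-fold in either direction (44.4%, against 23.9% of all features). Upward it was passed by 1 (11.1%, against 10.5%) and downward by 3 (33.3%, against 13.3%). The mitotic motors among them were near level, KIFC1 with 73.8 and 81.4 FPKM (ratio 1.10) and CENPE with 9.43 and 9.14 FPKM (ratio 0.969). The light chains that bind cargo for kinesin-1 differed in direction. KLC1 had 47.0 and 51.9 FPKM (ratio 1.11) and KLC2 16.3 and 19.1 FPKM (ratio 1.17), whereas KLC3 had 8.16 and 6.29 FPKM (ratio 0.771) and KLC4 13.9 and 9.95 FPKM (ratio 0.718). KIFC3, a minus-end motor of epithelial junctions, was the highest with 11.8 and 15.7 FPKM (ratio 1.34), and KIFC2 the lowest with 7.82 and 5.47 FPKM (ratio 0.6995).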

How the data were processed

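Poly(A) RNA libraries of the 2 cultures were made by the authors with a stranded kit and sequenced as 75-base single-end reads. Per the labels and the study's methods, reads were mapped to CanFam3.1 with TopHat2 2.0.13, Bowtie2 2.2.3 and SAMtools 0.1.19, and the deposited FPKM values were made with Cuffnorm 2.2.1. Which gene annotation was used, and how Cuffnorm scaled the libraries, is not given in the sources used here. FPKM is relative to the whole library, so a change in abundant genes shifts the others.

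From the deposited FPKM, the 50-cm value of each feature was divided by its 2-cm value with no pseudocount added, where both exceeded 1 FPKM, with Python 3.11.15, numpy 2.4.6 and pandas 2.3.3 (figures: matplotlib 3.10.9). With 1 culture per height no test was made. The worth of 1 read came from features under 0.1 FPKM. Each symbol was read from its own row, since TUBB2A, like other features past 2-fold, stands out of alphabetical order in the files. Named are members past 1.5-fold, the 2 highest and 2 lowest ratios and the 2 highest levels of each role group, the members below the minimum, and the lowest and highest ratio of each further list. The remaining members, single genes of the further lists and the CCT genes, which no list holds, were named after their values were seen. The members and lists were chosen with earlier results of these data known. No sequences or genomic positions are given. The scripts were tested on simulated data. Alternatives were FPKM minima of 0, 0.1 and 5 in both cultures, a minimum of 1 in at least one culture with a pseudocount of 0.1, pseudocounts of 0.1 and 1 alone, and 3 other scalings.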

Additional observations from a re-analysis of the deposited data

How the results depend on the processing

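Each group median and count was recomputed under 9 alternatives, and a median was taken to have moved when it shifted by 0.1 or more on the log2 scale, since no replicate spread exists. No paired analysis was possible because each height had 1 culture. The medians of the alpha-tubulins, the beta-tubulins, the mitotic and transport kinesins and the gamma-tubulin complex genes moved by less than this under every alternative that was run, but the transport kinesin median, at -0.02, turned positive with a minimum of 5 FPKM (0.0057) and by quantile normalization (0.0074). With FPKM above 0 in both cultures, 2 members were past 2-fold upward, 5 past 1.5-fold upward and 2 past 1.5-fold downward, against 1, 1 and 1. The added upward ones were KIF26A, KIF26B, TUBB3 and KIF1A, all at ratios that few reads would give, and the added downward one was TUBA8. With FPKM above 0.1, 2 were past 1.5-fold in each direction. These minima kept 14306 and 13280 of all features, and the share of them past each limit was not computed. A minimum of 5 FPKM left 0 past 1.5-fold downward, because it removed KIF5C, and left TUBG1 alone among the gamma-tubulins, whose median became 0.11 in place of -0.15. Quantile normalization and division by the summed FPKM each left 0 members past 2-fold upward. Quantile normalization also moved the median of the other kinesins to -0.012. Of 291 values recomputed for 33 named genes, 285 shifted by less than 0.1 on the log2 scale. Many of these could not shift more. A changed minimum leaves the ratio of a gene as it was, and recentring and division by the summed FPKM shift all genes by the same small amount. A reversal was counted only for members past 1.5-fold, TUBB2A and KIF5C, and neither reversed. KIF9 and KIF23, with ratios close to 1, did change direction with the scaling. KIF5C shifted most among those past 1.5-fold, to -0.62 with a pseudocount of 1 and to -0.69 by quantile normalization, from -0.89. With 1 culture per height and no read counts, sampling error could not be given for any gene.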
